A study of Homo sapiens with 16 samples.

Results

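The 1000 strongest TOP2A cleavage cluster regions (CCRs) of K562 cells treated with p-benzoquinone were examined, out of 347365 p-benzoquinone CCRs on chromosomes 1 to 22. A CCR is a short stretch of the genome rich in sequenced DNA that had been covalently bound by TOP2A. The 1000 were chosen by the deposited p-benzoquinone value alone, as the CCRs where it was highest, taking the highest where a CCR carried several and leaving out the 18 CCRs in KMT2A, of which 4 would have ranked among them. Chromosomes X and Y and the unplaced sequences were outside the choice and held 21 CCRs at or above the lowest value chosen. Each treatment was deposited as 1 list pooled over its pre-amplified libraries, so no replicate values existed and no p-value between treatments is given. The p-benzoquinone list pools 2 libraries from cells given 8 µM for 4 h in 0.05% DMSO. The lists set beside it come from 0.05% DMSO vehicle (3 libraries, 1 or 4 h, with no record of which time belongs to which library), 25 µM etoposide for 1 h (3 libraries), 50 µM genistein for 1 h (2 libraries) and 2 µM mitoxantrone for 1 h (1 library). Doses differ throughout, and p-benzoquinone exposure was longer than that of the other poisons.

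DNA topoisomerase II alpha (TOP2A) passes one DNA duplex through a transient break in another, staying covalently joined to the broken ends. TOP2 poisons raise the amount of enzyme held on broken DNA. Etoposide and mitoxantrone are leukaemia drugs and genistein is a dietary isoflavone, whereas p-benzoquinone is a reactive metabolite of benzene that modifies the enzyme covalently. K562 is an established cell line from a chronic myeloid leukaemia, and it has the BCR-ABL1 fusion, with extra copies of that part of chromosome 22, and lacks CDKN2A and its neighbours on the short arm of chromosome 9. The p-benzoquinone list fitted that label at the lost genes, with 0 CCRs in CDKN2A, CDKN2B and MTAP. The genistein list had 1 CCR in CDKN2A and 1 in MTAP. BCR held 13 CCRs in 138 kb, and ABL1, the other gene of the fusion, held 7 in 175 kb. Whether either count is raised was not tested.

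Of the 1000 strongest CCRs, 8 (0.8%, exact binomial 95% interval 0.346 to 1.57) reached the promoter window of any gene (250 bases before to 50 after the start, RefSeq, GRCh38.p14), against 0.657% of all p-benzoquinone CCRs. For 3 of the 8 the gene was protein-coding. The sequences of these 3 and of 1 noncoding gene, LINC00945, are shown as examples of gene-start DNA inside a strong CCR. The DBH and LINC00945 CCRs ran across the start itself, while the AGAP3 CCR ended 167 bases before it and the ARHGAP26 CCR 38 bases before it. The ARHGAP26 CCR also began 355 bases past another mapped start of that gene, so its stretch lay inside the gene body. Each sequence is the stretch before the start that lay inside the CCR, 5′ to 3′ on the plus strand, with CG dinucleotides in capitals.
AGAP3, an Arf GTPase-activating protein gene, chr7:151085617-151085700: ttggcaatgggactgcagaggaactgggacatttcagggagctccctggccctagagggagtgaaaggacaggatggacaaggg
ARHGAP26, a GTPase-activating protein gene, chr5:142770977-142771189: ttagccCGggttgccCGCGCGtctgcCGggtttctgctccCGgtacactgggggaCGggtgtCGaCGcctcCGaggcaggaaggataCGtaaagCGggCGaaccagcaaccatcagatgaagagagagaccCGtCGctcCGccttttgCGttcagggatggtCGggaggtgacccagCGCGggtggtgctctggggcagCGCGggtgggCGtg
DBH, the gene of the enzyme that makes noradrenaline from dopamine, chr9:133636113-133636362: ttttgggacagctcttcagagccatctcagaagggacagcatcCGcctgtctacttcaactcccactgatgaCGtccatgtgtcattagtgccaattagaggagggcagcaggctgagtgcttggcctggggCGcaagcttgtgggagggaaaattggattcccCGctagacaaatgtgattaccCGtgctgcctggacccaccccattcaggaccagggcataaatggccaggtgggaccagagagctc
LINC00945, a long noncoding RNA gene, chr21:33057579-33057828: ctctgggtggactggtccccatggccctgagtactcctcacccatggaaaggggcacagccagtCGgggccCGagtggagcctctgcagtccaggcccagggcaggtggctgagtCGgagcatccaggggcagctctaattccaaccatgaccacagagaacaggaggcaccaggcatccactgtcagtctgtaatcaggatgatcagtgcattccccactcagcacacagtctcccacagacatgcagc

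The 4 stretches were unlike in base composition. The ARHGAP26 stretch held 23 CG dinucleotides in 213 bases, while the DBH stretch held 5 in 250, the LINC00945 stretch 3 in 250 and the AGAP3 stretch 0 in 84. Over the 250 bases before the start, ARHGAP26 had 27 CG dinucleotides, DBH 5, LINC00945 3 and AGAP3 3, beside a median of 11 over 33558 promoter windows. The remaining 4 windows, all of noncoding or uncharacterised genes, held 3, 3, 0 and 0. The letters GGGCGG, looked for on both strands, were in none of the 8 windows and in 42.6% of all windows. CCAAT was in 3 of the 8 (AGAP3, DBH and LOC105378728) against 31.8% of all windows, and TATAAA in 1 of the 8 against 10.8%. With 8 windows these counts are a description of those sequences.

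The deposited values that chose the 1000 CCRs ran from 33.09 to 135.13, with a median of 37.93, against a median of 5 over all p-benzoquinone CCRs. The value has no stated unit. At the edge of the choice the last CCRs kept had 33.09 and the next ones 33.08, so membership there is decided by the smallest deposited difference. The strongest of the 1000, at 135.13, lay in CYP4B1 on chromosome 1 (46817397 to 46817562, hg38), a cytochrome P450 gene. The next was at 98.62 in GALNT18 on chromosome 11 (11336566 to 11336706), a gene for a glycosyltransferase of mucin-type sugars. The third, at 87.27, lay on chromosome 18 (39178275 to 39178432) outside protein-coding genes. None of these 3 overlapped a CCR of any other list.

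The next CCRs were closer in value. One at 73.95 lay in AFF3 on chromosome 2 (99870301 to 99870498), a nuclear protein gene of lymphoid cells, and met DMSO at 2.07 and mitoxantrone at 9.07. One at 69.83 lay in MUC16, a cell surface mucin gene, and one at 68.64 in MAP3K12, a stress kinase gene of neurons. The CCR at 76.38 on chromosome 2 (100586942 to 100587089), outside protein-coding genes, met genistein at 41.98. Another outside genes, at 68.15 on chromosome 14 (92840059 to 92840217), was 112 bp from GOLGA5, a Golgi protein gene. The last of the 20 highest, in FAM13A on chromosome 4, stood at 63.82. Of these 20, 12 lay in a protein-coding gene, where 49.4% of all p-benzoquinone CCRs lay. No other list was met by 17 of the 20, and by 78.8% of all p-benzoquinone CCRs.

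**Figure D1:**
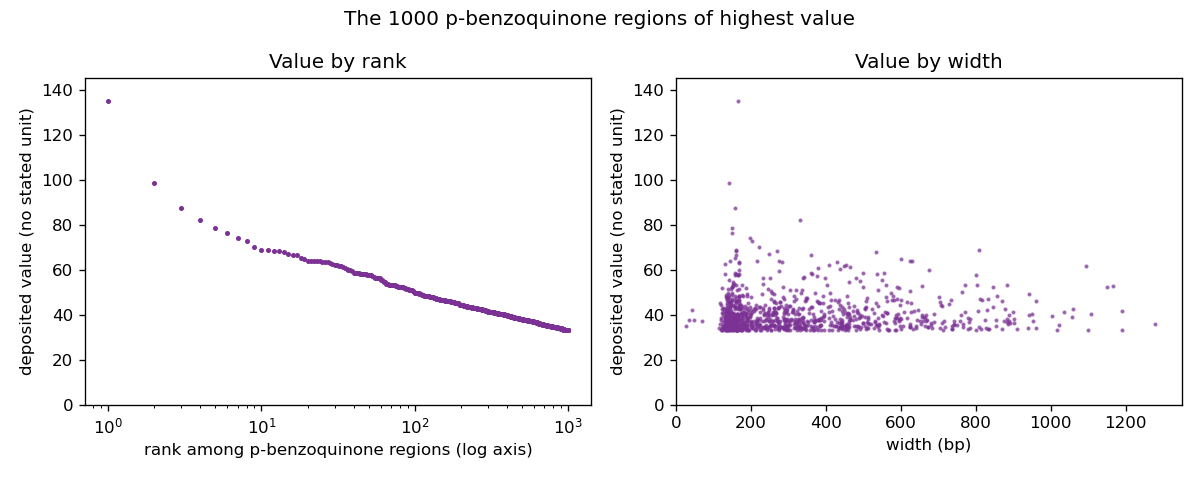
Deposited value (no stated unit) of the 1000 strongest p-benzoquinone CCRs against rank on a log axis (left) and against width in bp (right); each point is 1 CCR. Values fall from 135.13 at rank 1 to 33.09 at rank 1000, and widths run from 27 to 1278 bp with quartiles of 160 and 448.5 bp.

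Strong CCRs were wider than the rest. Their median width was 262 bp against 150 bp over all p-benzoquinone CCRs, and 42.5% were wider than 300 bp against 7.89%. CCRs of 200 bp or narrower made up 39.9% of the strong ones (399) against 82.4% of all, and 11 of the 20 strongest. Width comes from the same list as the value and is given as a description.

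Most of these values shared 1 step size. The deposited p-benzoquinone values gathered at whole multiples of a step, and the list showed a main step of 0.2416 and a minor step of 0.2275. Both steps were fitted on CCRs below the 1000. Among single values from 2 to 4, 29.1% fell on the minor step alone, with a value counted as on a step from 0.06 below to 0.02 above a multiple. That share was 0.645% from 8 to 12 and 0.0587% from 20 up to the lowest value chosen. Of the 1000 strongest CCRs, 964 had a value on the main step (33.1% is the share expected of values spread evenly) and 8 fell on the minor step alone. Of the 36 CCRs at 60 or above, 23 were on the main step. The 1000 as a group are thus nearly all of the main step, while the lowest of the list are mixed. At the very top fewer were counted on it, with 12 of the 20 highest within the window. The 3 CCRs of highest value were outside the window. The main step was fitted on values from 8 to 20, and a small error in it grows with each multiple. The fixed window therefore cannot decide whether the highest values lie off the main step. What the steps stand for is not given in the labels, and whether each belongs to 1 of the 2 pooled libraries was not tested.

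A second value was uncommon among them, though more frequent than over the whole list. A second deposited value was present in 39 of the 1000 (3.9%) and in 1.63% of all p-benzoquinone CCRs. All 39 second values lay on the minor step, and 7 of them lay on the main step as well. They ran from 1.82 to 7.29 with a median of 3.18, close to the median of 2.89 over all CCRs with a second value. Over all p-benzoquinone CCRs 5004 of 5649 second values were on the minor step. The strongest CCR with a second value was in CNTNAP2, with 64.75 and 5.69.

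By 1 bp, the strongest p-benzoquinone CCRs met each other list slightly more often than p-benzoquinone CCRs in general. By an overlap of 1 bp or more, 96 of the 1000 (9.6%, exact binomial 95% interval 7.85 to 11.6) met a DMSO CCR, against 7.93% of all p-benzoquinone CCRs. For etoposide the count was 61 (6.1%, 4.70 to 7.77) against 4.38%. For genistein it was 95 (9.5%, 7.75 to 11.5) against 7.91%, and for mitoxantrone 52 (5.2%, 3.91 to 6.76) against 3.91%. The share over all CCRs lay below the interval of the strong ones for etoposide and within it for the other 3 lists. Intervals cover counting error only, since amplified reads that carry no molecular identifier are not independent. In all, 747 of the 1000 met no other list, 207 met 1, 41 met 2, 5 met 3 and 0 met all 4. At least 1 other list was met by 25.3% of the strong CCRs (22.6 to 28.1) against 21.2% of all. At least 2 were met by 4.6% (3.39 to 6.09) against 2.72%, and at least 3 by 0.5% (0.163 to 1.16) against 0.207%. The shares over all CCRs lay below the interval for 1 or more and for 2 or more lists, and within it for 3.

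The small excess was next set beside width. Among CCRs of 200 bp or narrower, 6.52% of the strong ones met a DMSO CCR (4.30 to 9.40) against 6.99% of all. Among those wider than 300 bp the DMSO shares were 13.2% (10.1 to 16.8) and 14.1%. The wide strong CCRs stood above all for etoposide (9.41% against 7.71%) and genistein (15.3% against 13.1%). For mitoxantrone they stood below (5.65% against 6.64%). Each of those shares over all lay within the interval. Among the narrow, genistein was at 4.26% (2.50 to 6.73) against 7.15%, which lay above the interval. Etoposide there was at 3.01% against 3.86% and mitoxantrone at 4.26% against 3.53%. With the overlap share of all p-benzoquinone CCRs taken at the widths of the 1000, the value was 11.7% with DMSO, 6.33% with etoposide, 10.96% with genistein and 5.44% with mitoxantrone. Each of these is above the share measured in the strongest CCRs. The reading by midpoint, which does not depend on the width of the p-benzoquinone CCR, gave 4.5% against 4.68% with DMSO, 2.3% against 2.57% with etoposide, 3.2% against 4.58% with genistein and 2.2% against 2.28% with mitoxantrone. The genistein share over all CCRs lay just above the interval of the strong ones (2.20 to 4.49), and the other 3 lay within it.

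**Figure D2:**
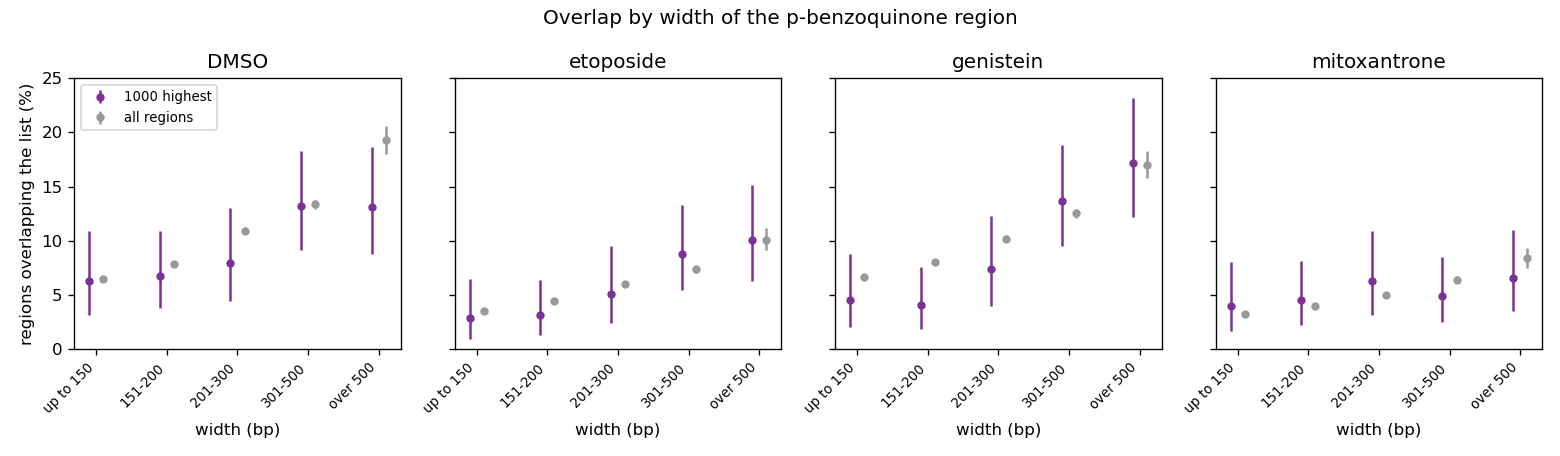
Share of p-benzoquinone CCRs (%) overlapping a CCR of each other list by 1 bp or more, by width class in bp, for the 1000 strongest (purple) and for all p-benzoquinone CCRs (grey); bars are exact binomial 95% intervals. Over all CCRs the share rises with width in every list; among the strongest it does so less regularly. In the class over 500 bp the DMSO share is 13.1% for the strongest and 19.3% for all.

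In 2 width classes the shares differed more. Strong CCRs over 500 bp met DMSO in 26 of 198 cases (13.1%, 8.76 to 18.6), while all p-benzoquinone CCRs of that class did so in 19.3% (18.0 to 20.6). Strong CCRs wider than 150 and up to 200 bp met genistein in 9 of 223 cases (4.04%, 1.86 to 7.52), against 8.02% of all in that class. The remaining shares of all CCRs lay within the intervals of the strong ones. There were 20 such pairs of shares in all.

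The overlap was also followed by rank. The DMSO overlap was 8.8% (6.47 to 11.6) in the first 500 CCRs by value and 10.4% (7.87 to 13.4) in the next 500. It was 13.3% (11.3 to 15.6) in the 1000 after those and 7.62% beyond rank 100000. Median width was 260, 270.5 and 266 bp in the first 3 of these bands and 143 bp in the last. The shares by rank were not adjusted for width. By midpoint the DMSO share was 3.6% in the first 500 CCRs and 4.81% beyond rank 100000, and for genistein 3.8% and 4.79%. By midpoint the first 500 CCRs thus met neither list more often than the CCRs of lowest value did.

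**Figure D3:**
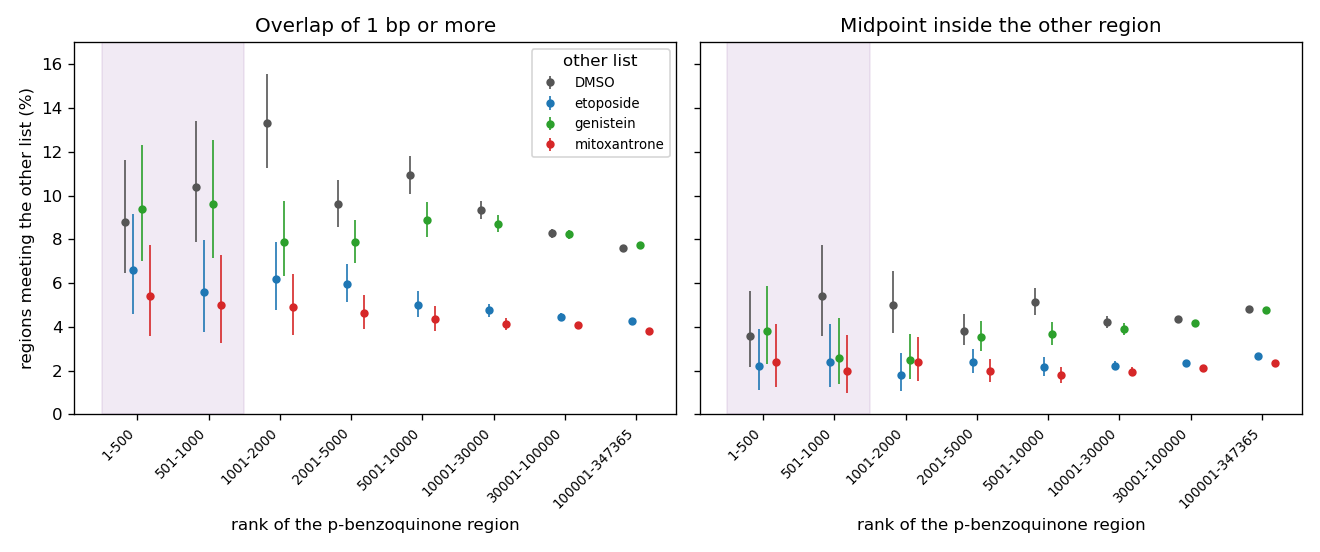
Share of p-benzoquinone CCRs (%) meeting each other list by rank of deposited value, by 1 bp or more (left) and by midpoint (right); points are rank bands, bars exact binomial 95% intervals, and the shaded bands are the 1000 strongest. On the left the DMSO share goes from 8.8% in the first band to 7.62% in the last, with its highest value, 13.3%, just below the 1000, and on the right it goes from 3.6% to 4.81%.

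Cover around the strongest CCRs was measured next. DMSO CCRs covered 3.75% of the bases within 100 bp of their centres and 2.30% at 3 to 5 kb, a ratio of 1.63, against 2.01 around all p-benzoquinone CCRs. The etoposide ratios were 1.88 and 1.98, the genistein ratios 1.20 and 1.59, and the mitoxantrone ratios 1.52 and 1.59. These ratios rest on the innermost 100 bp. Over the innermost 500 bp the ratios were 1.36 and 1.37 with DMSO, 1.45 and 1.33 with etoposide, 1.28 and 1.21 with genistein, and 1.08 and 1.21 with mitoxantrone. The direction thus turned with the distance taken for etoposide and genistein. At 200 to 300 bp genistein CCRs covered 3.87% around the strong CCRs and 3.00% around all. Within 500 kb the strongest CCRs had a mean of 124 DMSO CCRs and all p-benzoquinone CCRs a mean of 120. For genistein the means were 150 and 156.

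**Figure D4:**
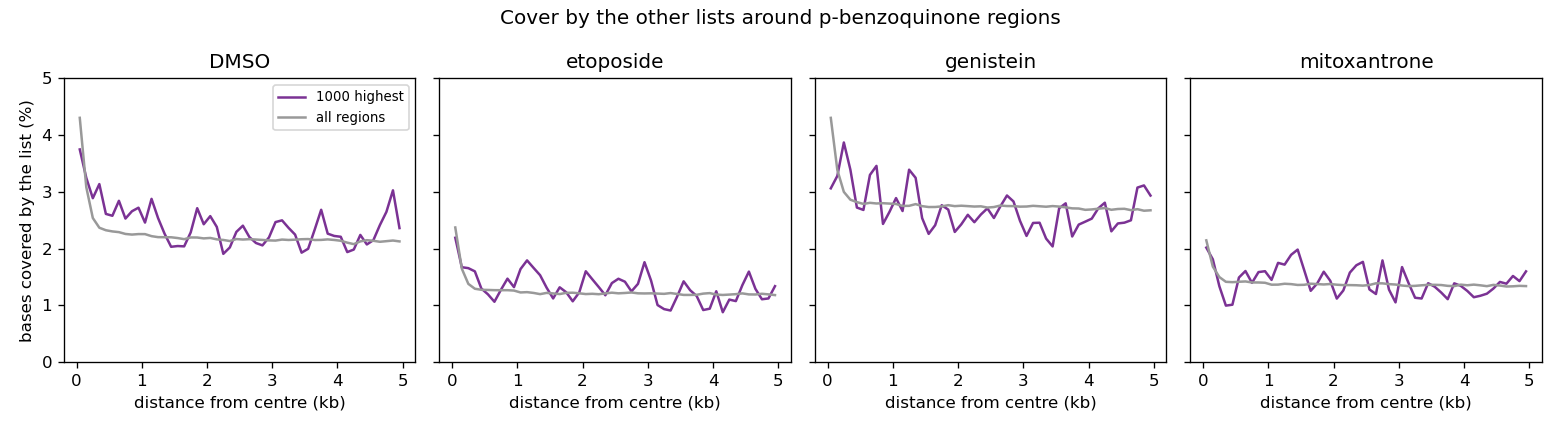
Share of bases (%) covered by each other list against distance (kb, in 100 bp steps, both sides pooled) from the centre of the 1000 strongest p-benzoquinone CCRs (purple) and of all (grey). At the centre the DMSO line stands at 3.75% for the strongest and 4.31% for all, and the genistein line at 3.06% and 4.30%.

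Where another list did meet a strong CCR, its own values there were set beside those of the whole list. The 98 DMSO CCRs met by the 1000 had a median value of 4.68, against 5.54 for DMSO CCRs met by any p-benzoquinone CCR and 6.09 for all DMSO CCRs. For etoposide the medians were 5.01, 7.12 and 7.79. They went the other way for genistein, at 16.5, 14.3 and 12.9, and for mitoxantrone, at 16.5, 15.2 and 13.3. Values of different lists are not on a common scale, so only values of the same list are compared. The mitoxantrone list is the one that carried an input signal. Of its 52 CCRs met by the strongest p-benzoquinone CCRs, 7 (13.5%) had an input of 0 and the median input was 0.47, beside 13.6% and 0.47 for those met by any p-benzoquinone CCR.

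The 1000 strongest CCRs of each other list, chosen the same way, were met by few p-benzoquinone CCRs, strong or not. For DMSO the count was 0 of the 1000 (upper bound 0.368%) against 0.0308% of all p-benzoquinone CCRs. For etoposide it was 2 (0.2% of each set of 1000, 0.0242 to 0.721) against 0.0334%. For genistein it was 1 (0.1%, 0.00253 to 0.556) against 0.0273%, and for mitoxantrone 2 (0.2%, 0.0242 to 0.721) against 0.0317%. Each share over all CCRs lay within the interval of the strong ones. The scales of the lists differ, so the values below are side by side and not compared. The 2 shared with etoposide were in POLR2F, an RNA polymerase subunit gene on chromosome 22 (38035125 to 38035557), with 45.66 under p-benzoquinone and 43.16 under etoposide, and outside genes on chromosome 7 (157470837 to 157471398), with 40.82 and 45.49. The genistein CCR was also outside genes, on chromosome 4 (17028289 to 17028702), with 133.24 under genistein and 36.71 under p-benzoquinone. Mitoxantrone shared FRMPD2 on chromosome 10 (48222250 to 48223052), with 92.73 under mitoxantrone and 53.11 under p-benzoquinone, and the secreted protease gene ADAMTS3 on chromosome 4 (72331209 to 72331366), with 93.69 and 48.09. The highest DMSO value met by any strong CCR was 55.83, below the 62.26 at which the strongest DMSO CCRs began.

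Of the strong CCRs, 5 met 3 of the other lists, and they are named although the rule for named genes asked for all 4. The FRMPD2 CCR had 53.11 under p-benzoquinone, 15.27 under etoposide, 27.97 under genistein and 92.73 under mitoxantrone, and no DMSO CCR. HTR5A, a serotonin receptor gene on chromosome 7 (155072656 to 155073036), likewise met every poison list but not DMSO, with 37.68 under p-benzoquinone, 4.4 under etoposide, 8.95 under genistein and 35.32 under mitoxantrone. It was also joined from 2 components, with a second p-benzoquinone value of 3.19. A CCR near RHEB, a GTPase gene that activates mTORC1, stood at 33.32 on chromosome 7 (151463331 to 151464041). It met DMSO at 2.07, etoposide at 21.74 and genistein at 16.6. The chromosome 7 CCR shared with strong etoposide cleavage, 53.4 kb from DNAJB6, also met DMSO at 2.54 and mitoxantrone at 16.19. The fifth, at 62.85 on chromosome 14 (96945941 to 96946107), met DMSO at 2.31, etoposide at 3.65 and genistein at 4.66. Each DMSO value among the 5 was below the DMSO median of 6.09. Of the 5, 3 lay between 150 and 160 Mb of chromosome 7, seen only afterwards. That stretch held 15 of the 1000 strong CCRs and 1754 p-benzoquinone CCRs in all.

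Gene bodies held strong CCRs about in proportion. Of the 1000, 507 (50.7%, 47.6 to 53.8) lay in a protein-coding gene, against 49.4% of all p-benzoquinone CCRs. The share was 55.0% (50.5 to 59.4) in the first 500 and 46.4% (42.0 to 50.9) in the second 500. Within 1 kb of a mapped gene start there were 20 strong CCRs (2.0%, 1.23 to 3.07) against 1.8% of all, a start being mapped for 15101 of 19126 protein-coding genes. Genes longer than 500 kb held 7.7% of the strong CCRs (6.12 to 9.53) and 9.29% of all. Along genes of known strand, the strong CCRs were spread from the fifth of the gene next to the start, with 18.9%, to the fifth next to the end, with 19.2%. Long noncoding RNA genes held 17.1% against 16.4%, and pseudogenes 0.4% against 0.601%. For each of these position shares, the value over all CCRs lay within the interval of the strong ones, apart from the gene body share of the first 500.

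The 20 CCRs near gene starts included, besides AGAP3 at 61.6, ARHGAP26 at 40.1 and DBH at 38.66, a CCR at 49.75 by ESS2, a spliceosome-associated gene on chromosome 22. One by SPIB, an ETS transcription factor gene of B cells, stood at 42.97. The ESS2 CCR met a DMSO CCR of 38.92, among the higher DMSO values met. One strong CCR, at 35.75 on chromosome 3 (10280225 to 10280445), covered the microRNA gene MIR12127.

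Strong CCRs fell in 481 of 19126 protein-coding genes, or 2.51%, and 34 genes held 2 or more. These were long genes, with a median length of 401 kb against 118 kb for genes with any strong CCR and 24.5 kb for all. CNTNAP2, a neurexin-family adhesion gene of neurons on chromosome 7 that is also a common fragile site, held the most with 5. Their values were 64.75, 61.86, 53.17, 34.56 and 33.1, and none met a CCR of another list. CNTNAP2 spans 2304 kb and held 285 p-benzoquinone, 237 DMSO and 368 genistein CCRs. RBFOX1, a neuronal splicing regulator gene on chromosome 16 of similar length, held 450 p-benzoquinone CCRs and 2 strong ones, at 66.47 and 36.49.

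Each of 5 further genes held 3 strong CCRs. CACNA1E, a voltage-gated calcium channel gene, had 3 from 34.53 to 59.43, of which 2 met DMSO, 1 genistein and 1 mitoxantrone. KAZN, which encodes the desmosome-associated protein kazrin, had 3 from 41.32 to 52.42, with 1 meeting DMSO and 1 mitoxantrone. SHANK2, a postsynaptic scaffold gene, had 3 from 33.81 to 43.73, none of which met another list. PTPRN2, a secretory-vesicle phosphatase-like gene, had 3 from 34.55 to 35.51. SHB, an SH2-domain adaptor gene on chromosome 9, is the shortest of the 5 at 153 kb and had 3 from 39.84 to 43.26 among its 52 p-benzoquinone CCRs.

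Some shorter genes also held 2, of which FLNC and PADI2 were picked out after their values were seen. FLNC, the filamin C gene, spans 28.9 kb and had 2, at 41.25 and 37.2, among 10 p-benzoquinone CCRs. PADI2, a peptidylarginine deiminase gene of 52.7 kb, had 2 at 37.2 and 35.98. Both met etoposide CCRs, each of value 2.21, below the median of 7.79 over all etoposide CCRs. GNB1L, a WD-repeat gene of 71.7 kb on chromosome 22, had 2 at 52.38 and 50.99 among 15, and neither met another list. Both strong CCRs of LRP8, a reelin receptor gene, met genistein CCRs, at 48.27 and 40.1 under p-benzoquinone. The Wnt transcription factor genes TCF7L1 and TCF7L2 each had 2, at 57.53 and 37.65 and at 43.26 and 39.86. ALK, a receptor tyrosine kinase gene, had 2 at 47.6 and 38.88, and ITGA9, an integrin gene, 2 at 58.7 and 43.5.

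Spacing between strong CCRs was near the background at 10 kb and above it at 100 kb. Within 10 kb, 8 of the 1000 had another (0.8%, 0.346 to 1.57), against 0.972% of all p-benzoquinone CCRs with a strong one that near. Within 100 kb, 13% had another (10.98 to 15.2) against 9.02%. The 8 formed 4 pairs. In TCF7L1 the partners had 57.53 and 37.65, in SHANK2 43.73 and 33.81, at AQP5 on chromosome 12 39.13 and 34.31, and on chromosome 20 outside genes 36.68 and 33.83.

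Of 220 genes in 13 lists, 14 (6.36%, 3.52 to 10.4) held a strong CCR, against 2.51% of all protein-coding genes, and 8 of the 14 were neuronal or fragile site genes. Those 8 ran from 88.6 kb (SNAP25) to 2474 kb (RBFOX1) in length, against a median of 24.5 kb for all protein-coding genes. The shares per gene were not adjusted for length. Counted per CCR, genes longer than 500 kb held 7.7% of the strong CCRs and 9.29% of all. Lists of topoisomerase and adduct removal genes (0 of 13), double-strand break repair genes (0 of 15), replication-dependent histone genes (0 of 16), ribosomal protein genes (0 of 20), immediate early genes (0 of 17), housekeeping genes (0 of 14) and hepatocyte markers (0 of 15) had none. Among 15 NRF2 quinone stress response genes, whose products detoxify quinones, TXNRD1 had 1 at 33.82. Among 25 leukaemia translocation genes RUNX1 had 1 at 36.97 and BCR 1 at 49.06, neither of which met another list. Neuronal markers had the most, with 5 of 15, among them RBFOX1 as above, SNAP25 at 38.42, RBFOX3 at 34.08 and NRXN3 at 33.6. Fragile site genes had 3 of 15, namely CNTNAP2, WWOX (2, at 43.98 and 37.2) and LRP1B at 35.51. The 1000 strongest DMSO CCRs, which fell in 2.37% of all protein-coding genes, were in 3 of the 15 neuronal and 7 of the 15 fragile site genes. T-cell and B-cell markers had 2 of 20, CD2 at 36.71 and LCK at 34.56, and erythroid genes 1 of 20, ZFPM1 at 37.22.

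The strong CCRs were unevenly spread over chromosomes. Over the genome 2.88 of every 1000 p-benzoquinone CCRs were among the strongest. Chromosome 1 had 153 of them, or 4.31 per 1000 (3.65 to 5.04), chromosome 16 had 49, or 4.16 (3.08 to 5.50), and chromosome 22 had 26, or 6.10 (3.99 to 8.93). The lowest were chromosome 13 with 1.47 (0.759 to 2.56), chromosome 14 with 1.63 (0.890 to 2.73) and chromosome 9 with 1.73 (1.09 to 2.63). The strongest DMSO CCRs numbered 2.78 per 1000 DMSO CCRs on chromosome 1 and 2.05 on chromosome 22, against 3.37 over the genome. Over 10 Mb bins, 200 to 210 Mb of chromosome 1 had the most, with 17, followed by 150 to 160 Mb of chromosome 7 with 15. Of 273 bins with 500 or more p-benzoquinone CCRs, 25 had no strong one. K562 is aneuploid, and copy number was not measured here, so its part in these differences was not tested.

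**Figure D5:**
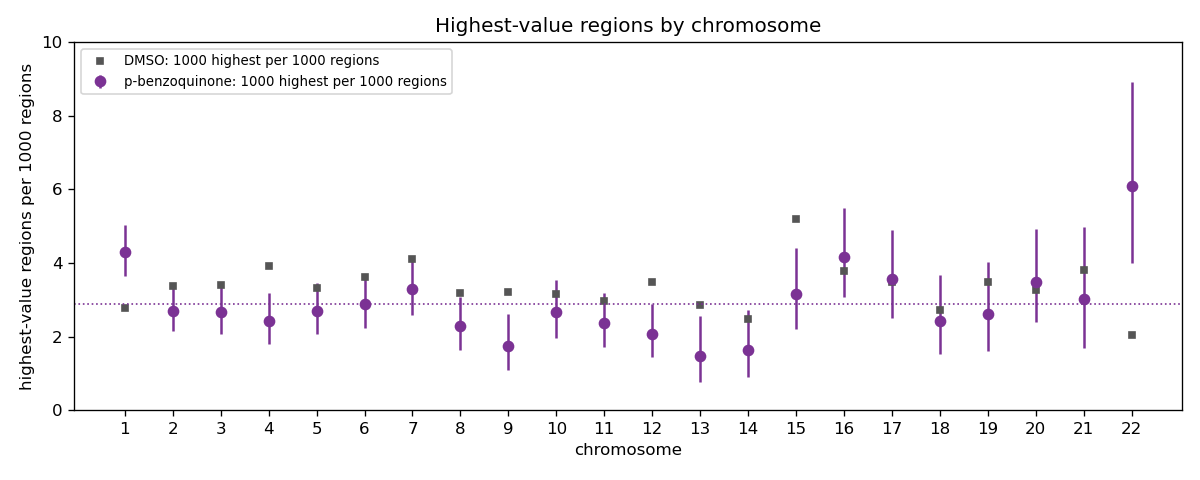
Number of the 1000 strongest CCRs per 1000 CCRs of the same list, by chromosome, for p-benzoquinone (purple, with exact binomial 95% intervals) and DMSO (grey squares); the dotted line is the p-benzoquinone genome value of 2.88. Chromosome 22 stands highest for p-benzoquinone at 6.10 and is the lowest for DMSO at 2.05.

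On chromosome 22 the strong CCRs were gathered in 1 segment. Between 19 and 24 Mb, bounds set after the values were seen, lay 14 of the 26, or 27.0 per 1000 p-benzoquinone CCRs there, while the rest of the chromosome had 12, or 3.21 per 1000. BCR lies near the end of that segment, and its strong CCR (23219673 to 23219862) had 49.06. Others were in AIFM3, a mitochondrial flavoprotein gene, at 61.53, in the ubiquitin ligase adaptor gene KLHL22 at 52.6, in GNB1L, in the histone chaperone gene HIRA at 40.57 and in SNAP29, a membrane fusion gene, at 39.14. Of the 14, 13 were in a protein-coding gene (92.9%, 66.1 to 99.8), against 59.0% of all p-benzoquinone CCRs of the segment. Another list was met by 2, at ESS2 and KLHL22 (14.3%, 1.78 to 42.8), against 14.6% of all in the segment. The segment also held 0.149% of all p-benzoquinone CCRs, against 0.0930% of DMSO, 0.0909% of etoposide, 0.0382% of genistein and 0.0461% of mitoxantrone CCRs. Each other list had only 2 or 3 of its strong CCRs there, no interval was computed, and whether their rates were raised was not tested. Those rates were 7.25 per 1000 against 3.37 over the genome in DMSO and 12.7 against 5.75 in etoposide. In genistein they were 19.4 against 2.47 and in mitoxantrone 22.5 against 5.18.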

How the data were processed

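TOP2A-bound DNA from K562 cells was sequenced after pre-amplification, per the labels' protocols. Per the submitters' processing notes, the tools were Bowtie2 2.1.0 and SAMtools 0.1.19, and the build hg38. How regions were called is not given in the sources used here. Each treatment has 1 pooled list deposited by the authors, giving every region a score of unstated unit. Only the mitoxantrone list adds a score of its input. Library depth cannot be read from such lists and is unknown.

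Regions were kept on chromosomes 1 to 22 outside KMT2A, and exact duplicates were dropped. Overlap was 1 bp or more. Genes and promoter sequences came from RefSeq tables of GRCh38.p14, which have the hg38 coordinates; no exons or genome were used. Value steps were fitted on single values from 8 to 20 (main) and below 6 (minor), after the data were seen. Shares carry exact (Clopper-Pearson) binomial 95% intervals.

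Named genes are those with the most strong regions, those at the 20 highest values, those met in every list and list genes holding one; only some are printed. Genes shared with another list's strongest regions, near gene starts or in the chromosome 22 segment were named after their values were seen. A further p-benzoquinone library, unamplified by its title but amplified by its description, was grouped by title. The members, gene lists and tests were chosen with earlier results of these data known. Alternatives were another overlap rule, 500 or 2000 regions, 1 region per 100 kb, single values, other windows and a minimum value of 4. Work was done in Python 3.11.15 with scipy 1.17.1, pandas 2.3.3, numpy 2.4.6 and matplotlib 3.10.9, and the overlap and step functions were tested on simulated data. Some items are not reported here.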

Additional observations from a re-analysis of the deposited data

How the results depend on the processing

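Of 52 recomputed values 34 stayed within the binomial interval of the value reported, or within 1.5 times for counts, and 18 moved beyond it. By midpoint the overlap shares fell to 4.5% with DMSO, 2.3% with etoposide, 3.2% with genistein and 2.2% with mitoxantrone, and with 50% of the strong CCR required to 3.2%, 2.0%, 2.3% and 1.8%; under both rules each lies below the share over all p-benzoquinone CCRs, whereas by 1 bp it lies above. With only CCRs of the other list of value 4 or more, DMSO gave 5.8% against 5.06% of all p-benzoquinone CCRs. Etoposide gave 3.6% against 3.23%. With 500 or 2000 CCRs, 1 CCR per 100 kb, single values or, chosen after seeing the data, values on the main step, no overlap share left its interval. The gene body share was 54.1% with 2 kb on each side, against 51.8% of all, and 55.0% for the 500 strongest, against 49.4%. The share near gene starts was 0.9% within 500 bp, under the 1.0% of all CCRs, and 8.7% within 5 kb, against 7.16%. The share with another strong CCR within 10 kb was 0% for the 500 strongest, against 0.497% of all. It was 2.1% for the 2000 strongest, against 2.0%. For the 1000 it was 0% at 1 kb, against 0.0671%, and 13% at 100 kb, against 9.02%. No paired analysis was possible because the lists pool replicates. Leaving out a library was impossible for the same reason, and depth per library, which limits all counts, is unknown.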
